A study of Mus musculus with 9 samples.

Results

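Measured here are 7 genes that mark the filter and the vessels of the kidney: Nphs1 and Podxl of podocytes, Tek, Ptprb, Esam and Plvap of endothelium, and Ren1 of renin cells. They were taken by symbol from a count table of 14052 genes, and all 7 passed the filter on low counts that left 7020 genes. RNA was sequenced from kidney cortex of mice about 1 year old on a normal diet. The tumour group is 5 tumour areas (L4, R2, R3, R4, R5) from mice with floxed Vhl and floxed Pbrm1 and the Ksp-Cre transgene, on a mixed C57BL/6, BALB/c and 129 background. The normal group is 4 cortex areas (L1, L2, R1, R2) from wild-type C57BL/6 mice. No area outside tumour from the mutant mice is among the samples. Tumour state, genotype and strain therefore cannot be told apart. Ksp is the promoter of the tubule cadherin Cdh16, so Cre is driven in tubule epithelium and not in the podocytes, endothelium or renin cells described here. The sample descriptions carry 1 number per group, which may mean 1 animal per group. The p-values below then measure only the spread between areas.

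Blood is filtered in the glomerulus through fenestrated endothelium, a basement membrane and the foot processes of podocytes, which are bridged by the slit diaphragm. Capillaries around the tubules are a separate, also fenestrated bed, whose openings carry diaphragms that mature glomerular capillaries lack. Renin is secreted by modified smooth muscle cells in the wall of the arteriole that enters the glomerulus, and starts the angiotensin cascade that controls blood pressure and salt balance. The VHL protein marks HIF alpha subunits for destruction, and its loss in tubule cells is the usual first step of clear cell kidney cancer, a tumour rich in vessels.

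Of the 7 genes, 5 fell and 2 rose in the tumour areas. Nphs1, Podxl, Tek, Ptprb and Ren1 were each lower by at least 2.34-fold, while Esam and Plvap were higher by 1.32-fold and 1.24-fold. The endothelial genes therefore did not move as a block. A call is an adjusted p under 0.05 in edgeR's quasi-likelihood test, and 74.6% of the 7020 tested genes were called (39.3% higher, 35.3% lower), so a call by itself does not set these genes apart. The groups did not overlap in 6 of the 7 genes, against 67.8% of all tested genes. A call of at least 2-fold lower, which 5 of the 7 genes met, was met by 12.6% of tested genes. Counts of called list genes below stand beside the same shares of 39.3% higher and 35.3% lower.

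The start of transcription is among the places where factors that set cell type act. Sites outside the windows described here were not searched. RefSeq promoter entries (build GRCm38.p6) were matched for Nphs1, Tek and Ren1, which all fell, each running from 250 bases before the start of transcription through the first 50 bases. The windows were searched on both strands for 4 motifs: TATAAA (the TATA box), ACGTG (core of the hypoxia response element), AGGAAG (an ETS site, bound by endothelial transcription factors among others) and TGACG (core of the cyclic AMP response element). No matches overlap in the windows. The sequences below are shown for the secreted hormone enzyme and the slit diaphragm protein, on the plus strand, at chr1:133350424-133350723 and chr7:30459808-30460107. Capitals mark the motif matches.
Ren1: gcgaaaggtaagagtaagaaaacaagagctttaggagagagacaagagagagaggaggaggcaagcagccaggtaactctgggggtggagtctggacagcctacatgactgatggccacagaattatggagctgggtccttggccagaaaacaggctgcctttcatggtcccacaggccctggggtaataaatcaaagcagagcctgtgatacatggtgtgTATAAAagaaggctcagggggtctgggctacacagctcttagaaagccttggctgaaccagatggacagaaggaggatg
Nphs1: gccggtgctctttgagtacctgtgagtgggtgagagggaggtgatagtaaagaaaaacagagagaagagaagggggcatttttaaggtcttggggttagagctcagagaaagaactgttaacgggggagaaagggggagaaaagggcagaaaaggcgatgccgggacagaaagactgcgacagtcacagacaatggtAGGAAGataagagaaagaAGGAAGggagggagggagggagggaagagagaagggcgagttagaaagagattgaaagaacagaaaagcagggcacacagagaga

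In the Ren1 window TATAAA begins 29 bases before the start of transcription. Among 32851 promoter windows of the same length, 13.6% held TATAAA on either strand. The Nphs1 window held AGGAAG at 53 and 35 bases before the start, a motif found in 35.4% of windows. The Tek window (chr4:94739039-94739338, plus strand) held none of the 4. ACGTG and TGACG, present in 19.6% and 20.8% of windows, were in none of the 3 windows. These matches describe letters and are not measured binding sites.

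The 9 libraries held between 5143527 and 8250261 counted reads. Levels are in CPM, a read count scaled to a common library size with edgeR's TMM factors. Means carry the SD over areas (n = 5 tumour, n = 4 normal). Fold changes, on the log2 scale with tumour relative to normal, carry a standard error derived from the test. It is the absolute log2 fold change divided by the square root of the quasi-likelihood F statistic. A total of 3989 genes (28.4%) held no count in any library, among them Vegfa, Erg and Ptprc, so a gene at 0 here need not be silent. Levels are not per length and are compared between areas, not between genes. In bulk tissue, fewer cells of a type and less RNA per cell cannot be told apart. Other tissue in the areas differed as well: 12 of 13 tested leukocyte markers rose (16 in the table, summed level 1551 to 3619 CPM against 134 to 158 CPM in normal areas), and 8 of 10 fibroblast markers rose (11 in the table, 976 to 3065 against 220 to 246 CPM). Of 13 tested proximal tubule markers 12 fell (14 in the table, 26675 to 49828 against 65196 to 67320 CPM). Distal nephron and collecting duct markers fell in 8 of 9 tested cases (11 in the table, 1538 to 6922 against 10860 to 11076 CPM). Cell division genes rose in 6 of 6 tested cases (10 in the table, 90.2 to 134 against 9.82 to 13 CPM). Parietal epithelium markers rose in 2 of 4 tested cases (6 in the table, 1026 to 1261 against 466 to 487 CPM). The part of these shifts in the results below was not tested.

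**Figure D1:**
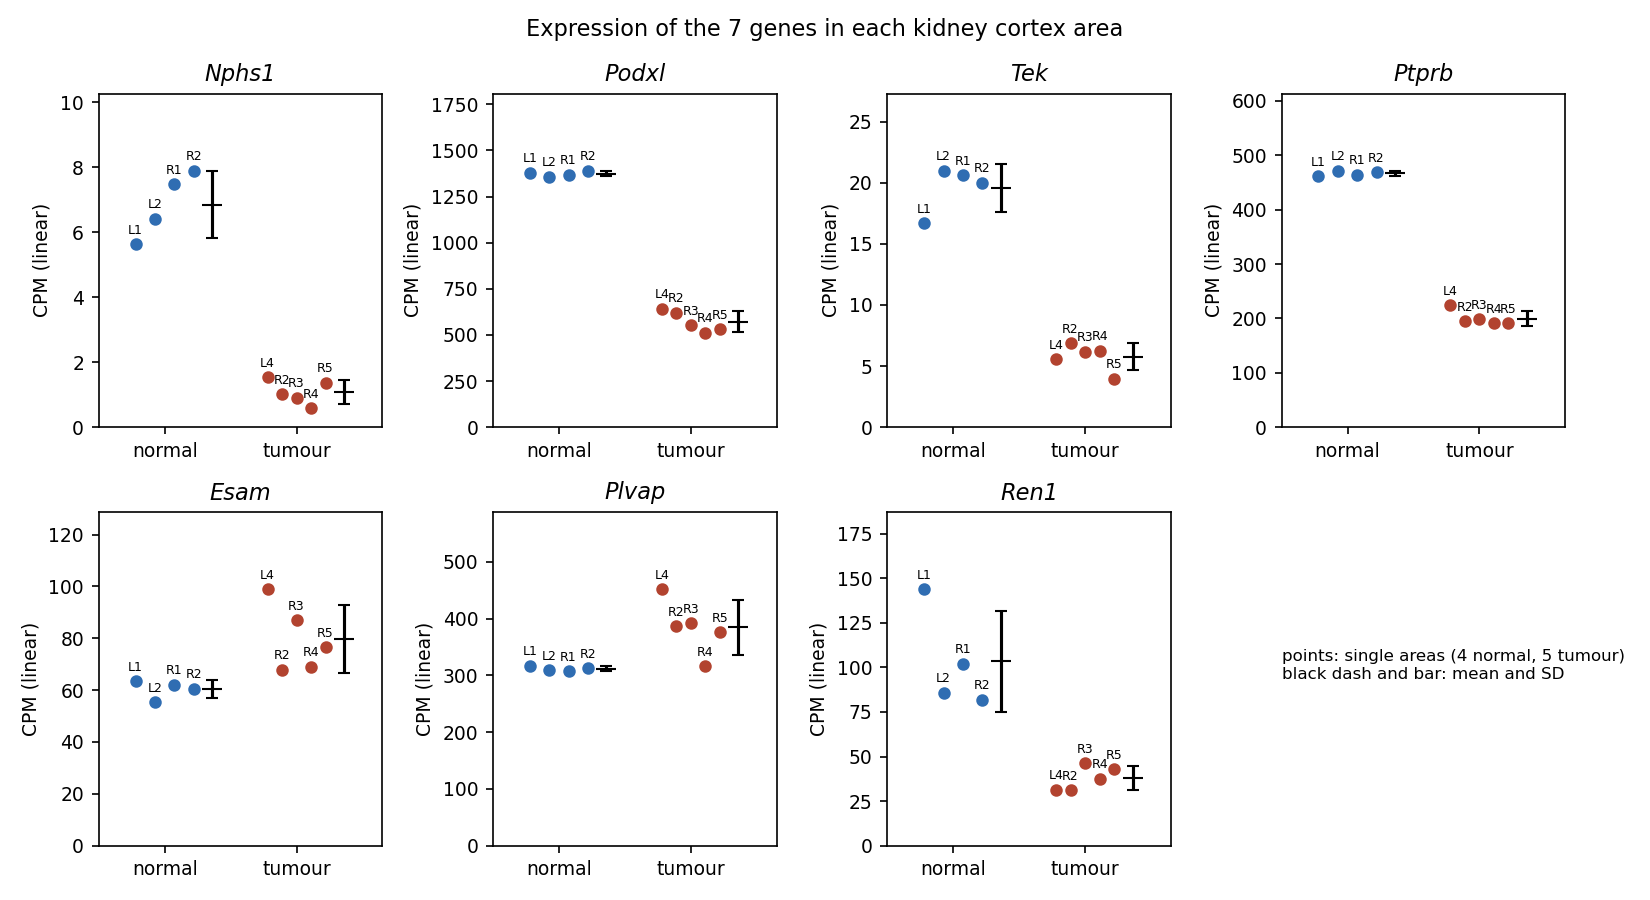
CPM of the 7 genes (vertical axes, linear and starting at 0) in each normal (blue) and tumour (red) area, with the mean and SD beside each group. The tumour areas lie below all normal areas for Nphs1, Podxl, Tek, Ptprb and Ren1 and above them for Esam, while for Plvap tumour R4 (316 CPM) lies inside the normal range of 307 to 317 CPM.

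Nphs1 (ENSMUSG00000006649) encodes nephrin, the adhesion protein that spans the slit diaphragm. It stood at 1.53 (L4), 1.01 (R2), 0.908 (R3), 0.581 (R4) and 1.37 (R5) CPM in the tumour areas and at 5.63 (L1), 6.41 (L2), 7.47 (R1) and 7.90 (R2) CPM in the normal areas. Every tumour area was far below every normal area. The mean was 1.08 ± 0.378 against 6.85 ± 1.03 CPM (-2.63 ± 0.24 on the log2 scale, edgeR adjusted p = 4.52e-06), the steepest fall of the 7 genes. Nphs1 was also the most thinly counted of them, with 4 to 47 reads per library, which widens its spread (coefficient of variation 35% in tumour and 15% in normal areas). An antisense transcript, Nphs1os, overlaps Nphs1 in GENCODE M21, the TruSeq RNA kit named in the labels does not mark strand, and a repeat in an Nphs1 transcript matches transcripts of many other genes, so some Nphs1 reads may not be its own.

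Podxl (ENSMUSG00000025608) encodes podocalyxin, the charged sialomucin that keeps foot processes apart and also coats endothelium. Its tumour values were 641 (L4), 620 (R2), 551 (R3), 511 (R4) and 530 (R5) CPM, and its normal values were 1379 (L1), 1357 (L2), 1368 (R1) and 1391 (R2) CPM. The normal areas were nearly equal and the tumour areas all stood well below them. Podxl fell to 41.5% of its normal mean (571 ± 56.9 against 1374 ± 14.6 CPM, -1.27 ± 0.08, adjusted p = 2.96e-07 in edgeR). The count of Nphs1 per 100 Podxl reads, a ratio that needs no scaling, lay between 0.114 and 0.258 in tumour areas and between 0.408 and 0.568 in normal areas, so nephrin fell further than podocalyxin.

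Podocyte genes beyond these 2 mostly fell, but not uniformly. Of 22 tested genes of the podocyte list (37 names fixed, 28 in the table) 15 fell and 5 rose, with a median log2 fold change of -0.94 against 0.06 over all tested genes. Without Nphs1 and Podxl, 13 of 20 fell and the median was -0.72. Ildr2 and Iqgap2 fell by 1.76 and 1.60 on the log2 scale. The genes that rose were Myo1e, an unconventional myosin (1.00 ± 0.05), the actin crosslinker Actn4 (0.73 ± 0.07), the formin Inf2 (0.72 ± 0.19), and the peptidases Dpp4 (0.70 ± 0.14) and Enpep (0.62 ± 0.12). Dpp4 and Enpep are also brush border enzymes of the proximal tubule, whose markers fell in 12 of 13 tested cases. The actin genes are used by many cell types. The part of other cell types in the genes that rose or fell was not tested.

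Collagens of the glomerular basement membrane split by chain. Of 11 tested genes 6 fell and 3 rose (median -0.38), beside 35.3% and 39.3% of all tested genes. Col4a3 and Col4a4, chains of the mature membrane that podocytes make, fell from 1166 ± 23.1 to 538 ± 120 CPM (-1.12 ± 0.15) and from 1230 ± 20.3 to 470 ± 96.0 CPM (-1.39 ± 0.14). Col4a5 fell by 0.38 ± 0.16, a call that 6 of 19 alternatives kept. Col4a1 and Col4a2, the chains found in most basement membranes, rose by 1.46 ± 0.09 and 1.15 ± 0.08. Hspg2, the perlecan core protein, fell by 1.15 and the laminin chain Lamb1 by 0.57, while the linker Nid2 rose by 0.67 ± 0.11.

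**Figure D2:**
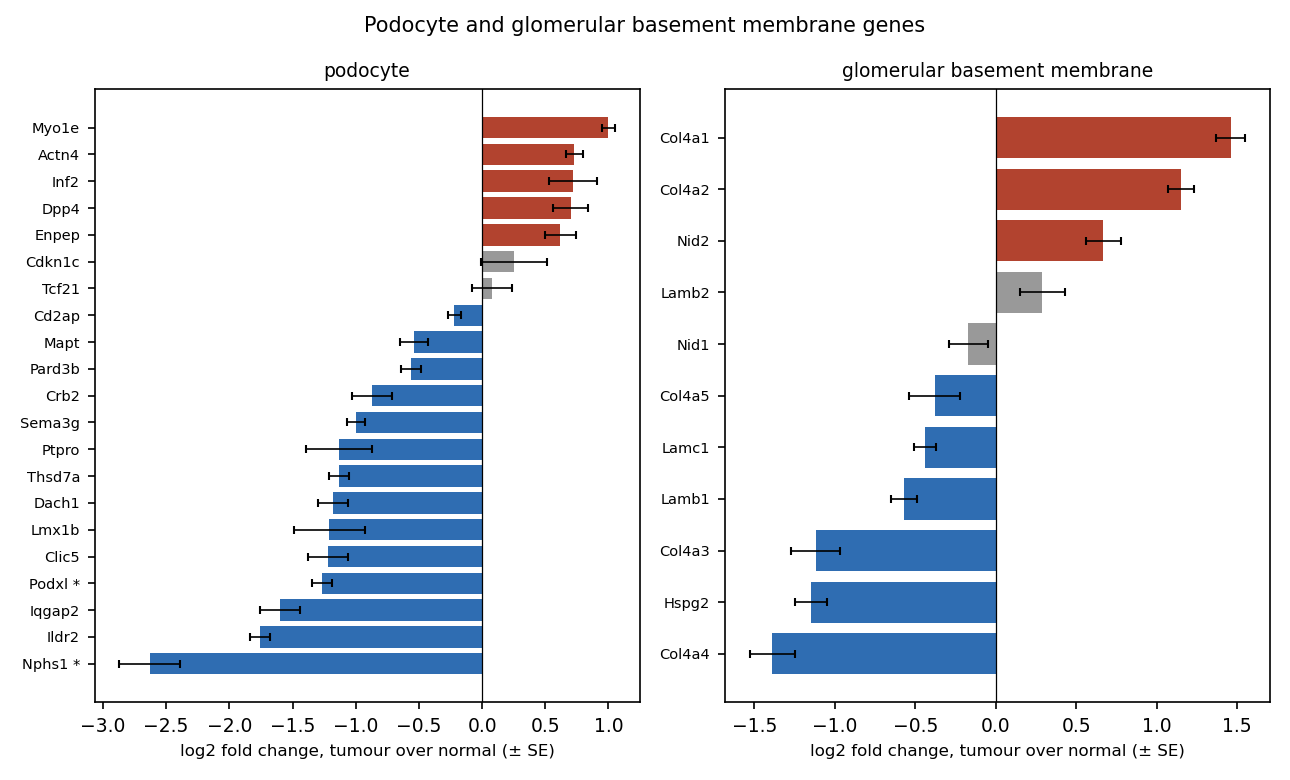
Log2 fold change (tumour over normal, horizontal axis, bars ± SE) of tested podocyte genes (left) and basement membrane genes (right), with red for called higher, blue for called lower, grey for not called and an asterisk for Nphs1 and Podxl. Nphs1 lies at -2.63, the lowest bar on the left, and Col4a1 at 1.46, the highest on the right.

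Nphs1 and Podxl were next set against their own cell type. For each area the mean log2 CPM of the 20 other podocyte genes was subtracted from that of the gene, a value on which library scaling has little bearing. Nphs1 fell by 1.90 relative to the other podocyte genes (tumour SD 0.37, normal SD 0.19) and Podxl by 0.79 (tumour SD 0.07, normal SD 0.03). Tumour and normal areas did not overlap in either. An exact permutation test over all assignments of the areas, 2-sided and unadjusted, gave p = 0.00794 for each of the 8 such comparisons made here, the smallest value that 5 against 4 areas allow. In CPM 67.8% of all tested genes did not overlap between the groups, and the share on this relative scale was not computed. The lack of overlap and this p therefore do not set the members apart in any of the 8.

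Tek (ENSMUSG00000006386) encodes TIE2, the endothelial tyrosine kinase receptor of the angiopoietins. Its tumour values were 5.57 (L4), 6.88 (R2), 6.17 (R3), 6.24 (R4) and 3.96 (R5) CPM, and its normal values were 16.7 (L1), 21 (L2), 20.6 (R1) and 20.0 (R2) CPM. Tumour R5 was the lowest area and no tumour area came near the normal range. Tek fell to 29.4% of its normal mean (5.76 ± 1.11 against 19.6 ± 1.98 CPM, -1.77 ± 0.16, adjusted p = 3.28e-06 in edgeR).

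Ptprb (ENSMUSG00000020154) encodes VE-PTP, the endothelial phosphatase that removes phosphate from TIE2 and from the junction cadherin complex. It stood at 224 (L4), 195 (R2), 198 (R3), 191 (R4) and 191 (R5) CPM in tumour and at 462 (L1), 472 (L2), 464 (R1) and 469 (R2) CPM in normal areas. The 4 tumour areas with the letter R were almost equal, and L4 stood above them. The fall (200 ± 13.9 against 467 ± 4.58 CPM, -1.22 ± 0.06, adjusted p = 6.25e-08 in edgeR) was the most precisely measured of the 7. By fold change the receptor fell further than the phosphatase. Tek reads per 100 Ptprb reads lay between 2.07 and 3.52 in tumour areas and between 3.61 and 4.45 in normal areas. These ranges nearly touch, and the tumour areas held only 26 to 43 Tek reads each, so their separation is uncertain.

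Other genes of the angiopoietin pathway changed in both directions, as did tested genes at large. Without Tek and Ptprb, 4 of 8 tested genes fell and 2 rose, with a median of 0.02 (17 names fixed and 12 in the table, members included). Of all tested genes 35.3% fell and 39.3% rose, so these counts do not set the pathway apart. Angpt1, the ligand that activates TIE2, fell from 65.9 ± 2.43 to 30.3 ± 4.24 CPM (-1.12 ± 0.10). Angpt2, a ligand that endothelium releases and that can block TIE2, rose from 8.42 ± 1.33 to 23.9 ± 7.86 CPM (1.51 ± 0.24). The ligands thus moved in opposite directions while the receptor and its phosphatase fell. Svep1, a matrix protein that binds TIE1, fell by 0.79. Downstream, the kinase gene Akt1 rose by 0.66 ± 0.08, the phosphoinositide kinase subunit gene Pik3r1 fell by 0.26, and read 0.04 higher with library size alone, and Klf2, a flow-induced factor, stood at 104 ± 20.0 against 84.1 ± 3.65 CPM (adjusted p = 0.0508 in edgeR) and passed in 5 of 19 alternatives. Angpt4 (2.77 ± 2.54 against 1.91 ± 1.09 CPM) did not pass, and Ece1, the endothelin-converting enzyme, fell by 0.29, a difference of -0.00 with library size alone. Tie1, the sister receptor, held 15 reads over the tumour and 17 over the normal areas and was not tested.

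**Figure D3:**
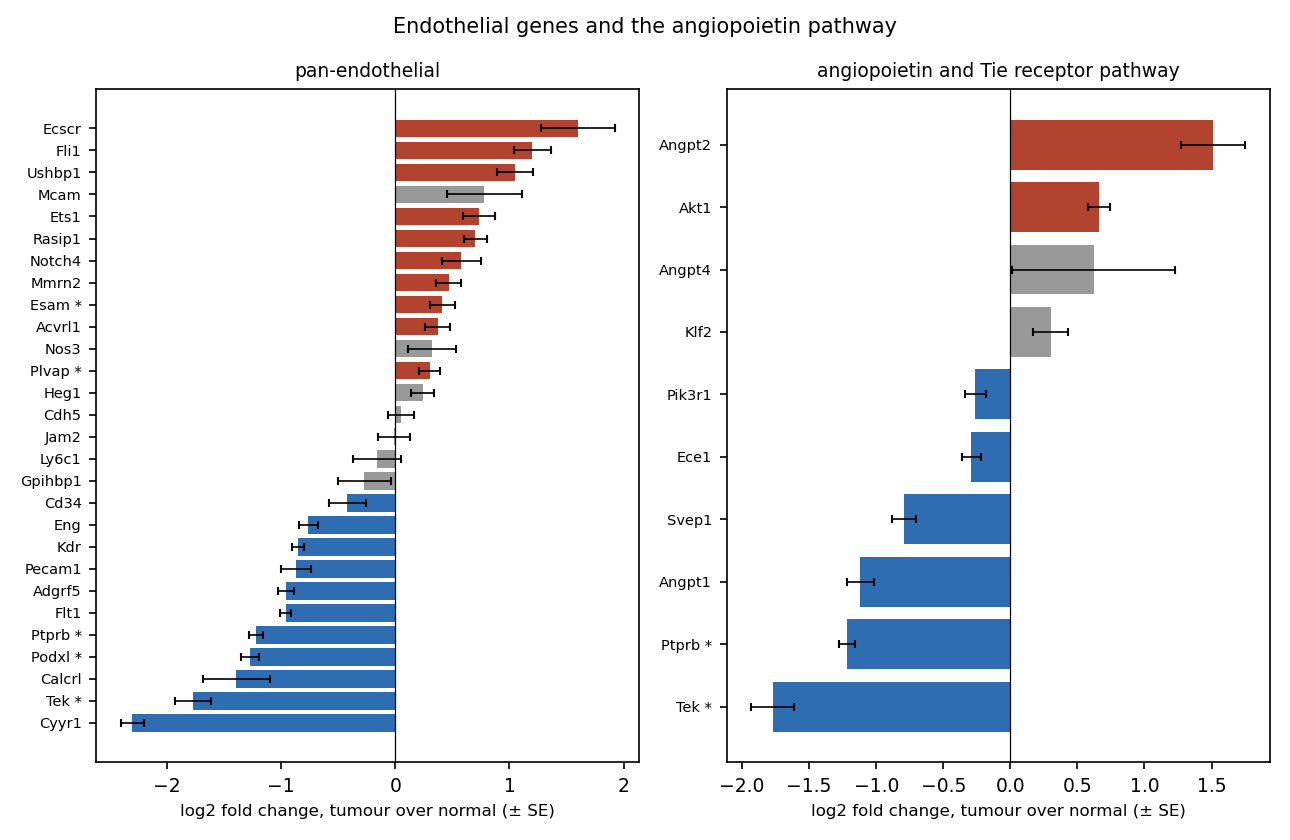
Log2 fold change (tumour over normal, horizontal axis, bars ± SE) of each tested gene of the pan-endothelial list (left) and of the angiopoietin and Tie receptor pathway (right), colours as called (red higher, blue lower, grey not called), members with an asterisk. On the left Cyyr1 (-2.30) and Tek (-1.77) are lowest and Ecscr (1.60) is highest, and on the right Angpt2 (1.51) stands opposite to Angpt1 (-1.12).

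Esam (ENSMUSG00000001946) encodes an immunoglobulin-family adhesion protein of endothelial tight junctions, also carried by platelets. It stood at 99.0 (L4), 67.8 (R2), 87.0 (R3), 69.0 (R4) and 76.5 (R5) CPM in tumour and at 63.4 (L1), 55.4 (L2), 62.1 (R1) and 60.5 (R2) CPM in normal areas. All tumour areas lay above all normal areas, R2 and R4 by a small margin. Esam rose from 60.4 ± 3.52 to 79.9 ± 13.1 CPM (0.41 ± 0.11, adjusted p = 0.00795 in edgeR). When only areas named with R were compared, 4 tumour and 2 normal, the difference was 0.29 and did not pass (adjusted p = 0.0583). The platelet gene Pf4 also rose, from 0.377 ± 0.197 to 3.38 ± 1.70 CPM, and its part in the Esam value was not tested. Alas2, the heme synthesis gene of red cell precursors, fell by 0.77 (adjusted p = 0.0423 in edgeR), a call that 7 of 19 alternatives kept. In that list of 11 platelet and blood cell names 6 were in the table and 2 were tested, with summed levels of 4.5 to 10.6 CPM in tumour against 2.82 to 7.09 CPM in normal areas, and Itga2b was at 0.

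Plvap (ENSMUSG00000034845) encodes the protein of fenestral diaphragms, found in capillaries around the tubules and low or missing in mature glomerular capillaries. Its tumour values were 452 (L4), 386 (R2), 392 (R3), 316 (R4) and 376 (R5) CPM, and its normal values were 317 (L1), 309 (L2), 307 (R1) and 312 (R2) CPM. L4 was highest, and R4 could not be told from the normal areas. Plvap rose from 311 ± 4.60 to 384 ± 48.3 CPM (0.30 ± 0.09, adjusted p = 0.00882 in edgeR), and like Esam it missed the threshold when only areas named with R were compared (0.24, adjusted p = 0.0591). Gtpbp3 overlaps Plvap on the opposite strand and held 0 reads in the table.

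Read against each other, the endothelial genes showed a shift of balance in ratios that need no scaling. Plvap reads per 100 Ptprb reads lay between 166 and 202 in tumour areas and between 65.4 and 68.7 in normal areas. Plvap reads per 100 Esam reads overlapped, at 451 to 570 and 494 to 558, and Ptprb reads per 100 Podxl reads overlapped too, at 31.5 to 37.3 and 33.5 to 34.8. These pairs, and those of Nphs1 with Podxl and Tek with Ptprb above, were chosen after their values were seen. Podxl and Ptprb kept nearly the same profile: over the 9 areas their log2 values, each relative to its normal mean, differed by a root mean square of 0.07, and each was among the 3 closest of 5284 genes to the other. Cntfr (0.07) and Hspa12a (0.11) were the other 2 closest to Podxl, and Micall1 (0.08) and Thsd7a (0.09) to Ptprb.

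The wider pan-endothelial list split in both directions, as did tested genes at large. Of 28 tested genes (60 names fixed, 39 in the table) 10 rose and 11 fell, with a median of 0.02, and without the 5 members 8 of 23 rose and 8 fell. Over all tested genes 39.3% rose and 35.3% fell, so these counts do not set the list apart. The summed level of the list, members included, was 2614 to 3479 CPM in tumour against 4294 to 4373 CPM in normal areas, with no overlap. Much of that sum is members: mean Podxl went from 1374 to 571 CPM and mean Ptprb from 467 to 200 CPM. The 23 tested genes that are not members had a median log2 fold change of 0.05, so the lower sum does not describe the list as a whole. Cyyr1 fell from 93.5 ± 3.46 to 18.9 ± 2.75 CPM (-2.30 ± 0.10), the receptor gene Calcrl by 1.39 and Pecam1, the platelet-endothelial adhesion molecule, by 0.87. Ecscr rose by 1.60 ± 0.32, Ushbp1 by 1.05 ± 0.16, and the ETS factors Fli1 and Ets1 by 1.20 ± 0.16 and 0.73 ± 0.14. Fli1 and Ets1 are expressed in lymphocytes as well, whose markers rose in the same areas, and the part of lymphocytes in these values was not tested. Cdh5, the junction cadherin of all endothelium, stood at 160 ± 29.1 against 154 ± 1.77 CPM (adjusted p = 0.687 in edgeR), a difference of 0.05 that read -0.06 without tumour L4 and was called higher with library size alone (0.35).

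Against the mean of the 23 other endothelial genes in the same area, 3 members fell and 2 rose. The differences were -1.67 for Tek (tumour SD 0.37), -1.17 for Ptprb (0.09), -1.21 for Podxl (0.12), 0.45 for Esam (0.15) and 0.35 for Plvap (0.10), each with no overlap of the groups and p = 0.00794 in the exact permutation test. How many other genes would separate the groups on this scale was not computed, and in CPM 67.8% of tested genes did. Plvap in tumour R4, which sat inside the normal range in CPM, was 0.22 above the normal mean on this scale, since the other endothelial genes of R4 were 0.20 below theirs.

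**Figure D4:**
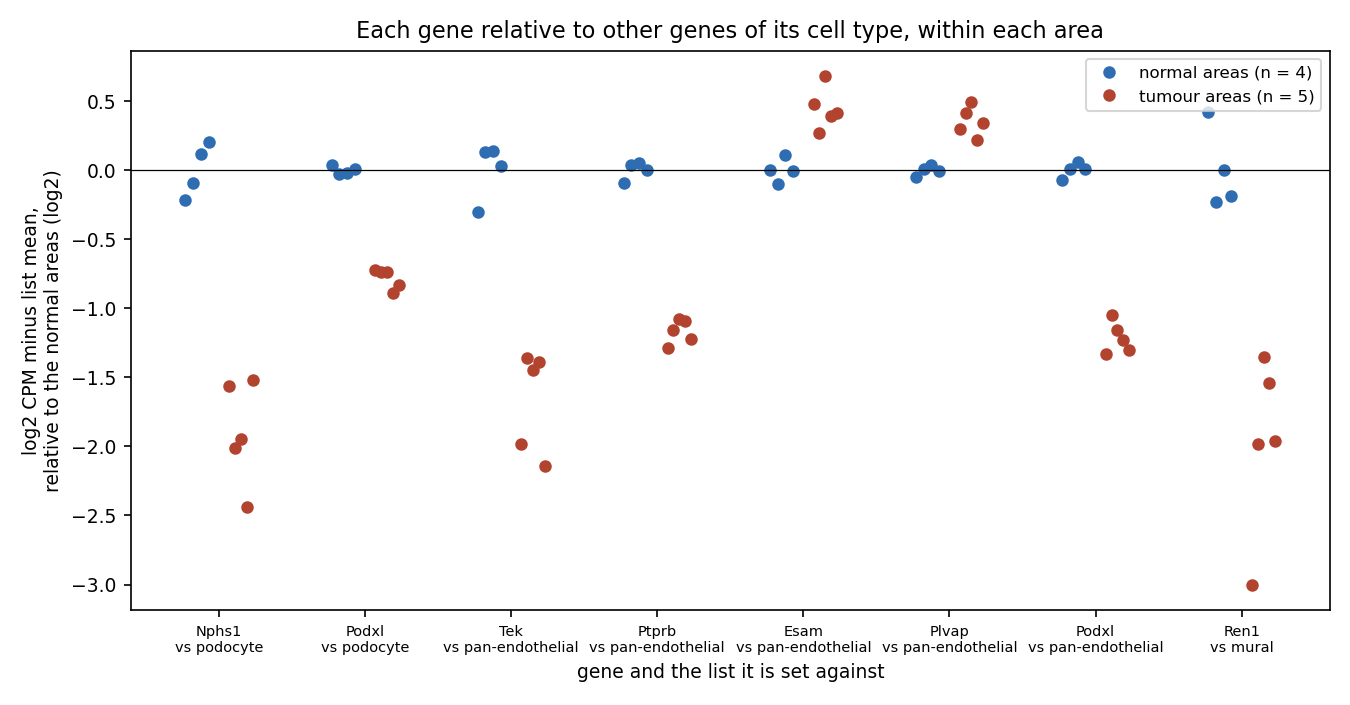
Log2 CPM of each gene minus the mean of the other genes of its cell type list in the same area, relative to the normal areas (vertical axis, log2), for normal (blue, n = 4) and tumour (red, n = 5) areas. Esam and Plvap lie above 0 in all tumour areas, the other 6 comparisons lie below, and Ren1 in tumour L4 is lowest at -3.00.

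Endothelial subsets were described by smaller lists. Of 5 tested glomerular endothelial genes 3 fell and 1 rose: Ehd3, a membrane traffic protein of glomerular endothelium, went from 262 ± 12.0 to 151 ± 14.7 CPM (-0.79 ± 0.07), Gata5 fell by 1.05 (not called when only areas named with R were compared), and Aqp1, also the water channel of the proximal tubule, by 0.83, while Ehd4 rose by 0.78 ± 0.14. Of 12 tested genes of the list for tip cells and new vessels 6 rose and 3 fell (median 0.56). Besides Plvap and Angpt2 the risers included Col4a1, Col4a2 and Nid2, which other cells also make, whereas Esm1, a proteoglycan of sprouting endothelium, fell from 129 ± 4.42 to 62.9 ± 8.39 CPM (-1.04 ± 0.09) and Igfbp3 fell by 1.77. Among 11 tested genes of the junction list the 2 that rose were the members Esam and Plvap, the latter a diaphragm protein. Of the list 5 fell, among them Jam3 (by 0.71) and Tjp1 (by 0.49, not called with library size alone). Without the members 0 of 8 rose and 4 fell. Of 4 lymphatic genes Reln rose by 2.40 ± 0.34, Lyve1 rose by 2.41 ± 0.78 but by 1.40 without tumour L4 and 0.84 without L4 and R5, and lost its call in limma-voom and with only areas named R, and Prox1, which tubules also express, fell by 1.61.

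The VEGF receptor genes Kdr and Flt1 fell, while Vegfc, a ligand for lymphatic vessels, rose. Kdr, the main VEGF receptor, fell from 308 ± 9.81 to 171 ± 7.28 CPM (-0.85 ± 0.05) and Flt1 from 492 ± 10.5 to 254 ± 11.8 CPM (-0.96 ± 0.05). Vegfc rose from 6.12 ± 0.985 to 16.2 ± 4.54 CPM (1.41 ± 0.21), the co-receptor gene Nrp1 by 0.45 ± 0.07 and the signalling phospholipase gene Plcg1 by 0.69 ± 0.11. Flt4, the third VEGF receptor gene (0.17), Nrp2 (0.22), Vegfd (0.68) and Pgf (1.08) did not pass. In this list 3 of 9 tested genes rose and 2 fell, beside 39.3% and 35.3% of all tested genes. With library size alone 7 rose.

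Ren1 (ENSMUSG00000070645) encodes renin, the protease that cuts angiotensinogen. It stood at 31.5 (L4), 31.2 (R2), 46.1 (R3), 37.5 (R4) and 42.9 (R5) CPM in tumour and at 144 (L1), 85.8 (L2), 102 (R1) and 81.8 (R2) CPM in normal areas. The normal areas varied more here than for any other member (coefficient of variation 27.5%), with L1 highest, and still none came down to the tumour values. Ren1 fell to 36.6% of its normal mean (37.8 ± 6.69 against 103 ± 28.4 CPM, -1.45 ± 0.18, adjusted p = 3.74e-05 in edgeR). Without normal L1 its log2 fold change was -1.26. Strain 129, part of the tumour mice's background, carries a second renin gene, Ren2, that C57BL/6 lacks. How reads of a Ren2 transcript would be counted was not tested.

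Renin cells are of the mural lineage, whose genes were mixed, with more rising than falling. Of 19 tested mural and mesangial genes 10 rose and 4 fell (median 0.83), with Acta2, smooth muscle actin, at 318 ± 212 against 49.4 ± 7.40 CPM and Tagln at 448 ± 242 against 101 ± 3.69 CPM. Serpine2 rose by 1.5 ± 0.18 and Cnn1 by 3.85 ± 0.95, the latter by 1.93 without tumour areas L4 and R5 and not called in limma-voom. Rgs5, Cspg4, Notch3 and Des also rose, by 1.29, 1.04, 0.87 and 1.48. Abcc9, Pdgfra and Pdgfrb fell by 2.46, 1.68 and 0.65, the last not called with library size alone, and Synpo2 fell by 1.36. Pdgfra is on the fibroblast list as well. Set against the mean of these 19 genes in the same area, Ren1 fell by 1.97 (tumour SD 0.64, normal SD 0.30), with no overlap of the groups (p = 0.00794 in the exact permutation test). The tumour values reached from -3.00 in L4 to -1.35 in R3. The mean of the mural genes themselves stood above that of the normal areas by 1.33 in L4 and 0.73 in R5, but by 0.30, 0.23 and 0.12 in R2, R3 and R4, beside 0.09 in normal L1.

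Ren1 fell while the substrate and the converting enzyme of its cascade rose. Of 12 tested renin-angiotensin genes (19 names fixed, 14 in the table) 6 rose and 6 fell (median 0.09). All tested genes had a median of 0.06, with 39.3% rising and 35.3% falling. Agt, the angiotensinogen that renin cuts, rose from 64.6 ± 8.93 to 262 ± 103 CPM (2.02 ± 0.27). Ace, which makes angiotensin II, rose from 132 ± 9.63 to 253 ± 46.8 CPM (0.94 ± 0.13). Both genes are expressed by the proximal tubule, whose markers fell in 12 of 13 cases in the same areas. Among other angiotensin peptidases Dpp3 rose by 0.79 ± 0.06 and Enpep by 0.62, Lnpep and Prcp fell by 2.26 and 0.71, Anpep fell by 0.51 (by 0.26 without tumour areas L4 and R5, a call that 15 of 19 alternatives kept), and Mme rose by 0.36, a call that 9 of 19 alternatives kept. Nr3c2, the mineralocorticoid receptor, fell from 5.36 ± 0.544 to 0.506 ± 0.379 CPM (-3.37 ± 0.35). The renin receptor gene Atp6ap2 fell by 0.18 and read 0.11 higher with library size alone.

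Regulators of renin cells were mixed, as were tested genes at large. In that list 6 of 12 tested genes fell and 3 rose, Ren1 included, beside 35.3% and 39.3% of all tested genes. The coactivator gene Ep300 fell by 0.79, Epas1, which encodes HIF2A, by 0.76, and Hoxd10 by 0.57, a call that 12 of 19 alternatives kept. The prostaglandin E receptor genes Ptger2 and Ptger4 rose by 3.85 ± 0.44 and 1.75 ± 0.23, and both are also expressed by leukocytes. Akr1b7, an aldo-keto reductase of renin cells, rose from 1.64 ± 0.761 to 3.63 ± 1.47 CPM, against the direction of Ren1, and missed the threshold without normal R1, without normal R2 and without tumour L4 and R5. In the macula densa list, for the tubule cells that signal to renin cells, 3 of 4 genes fell: Slc12a1, the salt carrier of the loop of Henle, by 2.0, Avpr1a by 0.79, and Nos1, the neuronal nitric oxide synthase, by 0.73, the last a call that 14 of 19 alternatives kept. Slc12a1 is also on the distal nephron and collecting duct list, of which 8 of 9 tested genes fell.

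**Figure D5:**
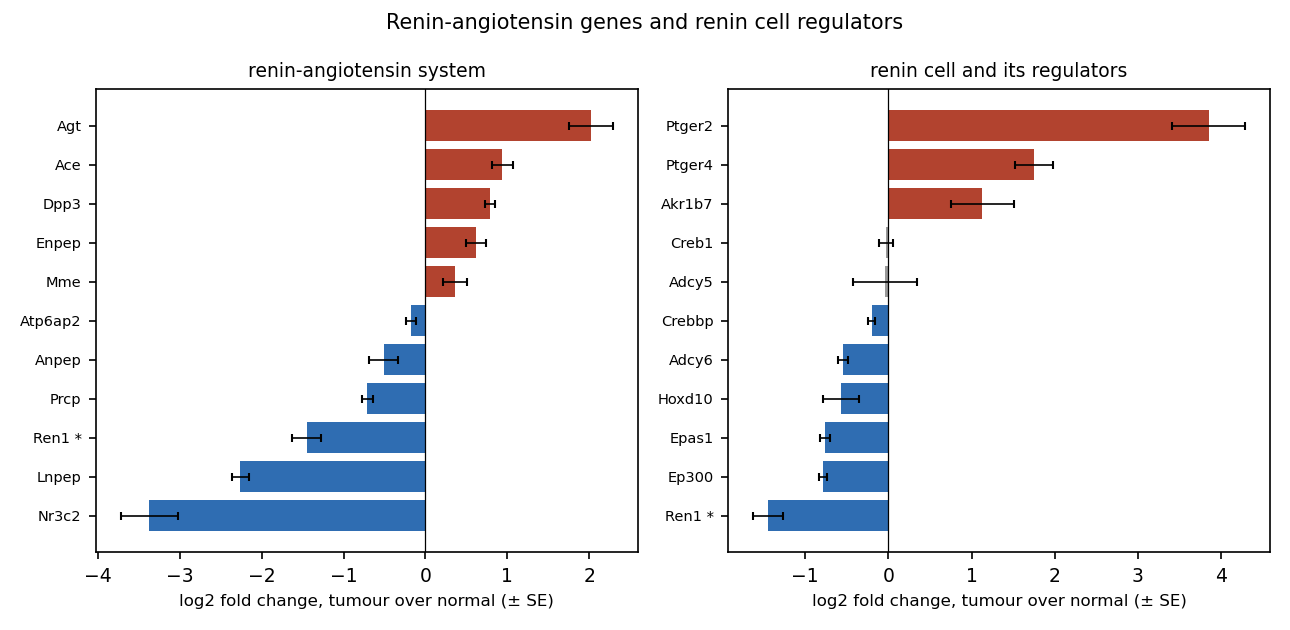
Log2 fold change (tumour over normal, horizontal axis, bars ± SE) of tested renin-angiotensin genes (left) and of the renin cell and its regulators (right), red for called higher, blue for called lower, grey for not called, Ren1 with an asterisk. Ren1 (-1.45) falls on both sides while Agt (2.02) and Ace (0.94) rise.

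The 3 genes closest in profile to each of the other members were found in the same way. Root mean square differences in log2 CPM over the 9 areas were 0.23 for Vwa1, 0.25 for Ccbe1 and 0.29 for Wee1 beside Nphs1, and 0.15 for Rybp, 0.15 for Rprd1a and 0.16 for Ildr2 beside Tek. They were 0.09 for Arglu1, 0.10 for Hoxb4 and 0.10 for Lrch1 beside Esam, and 0.05 for Lzts2, 0.07 for Crip2 and 0.07 for Rab31 beside Plvap. For Ren1 the closest were Lhx1 (0.20), Usp20 (0.23) and Pnpla8 (0.23). Among the members, Esam and Plvap differed by 0.13, Ren1 and Ptprb by 0.34, and Nphs1 and Esam, the farthest apart, by 2.08.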

How the data were processed

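The authors deposited unnormalized counts of reads for each gene in 9 libraries, whole numbers when checked. Per the labels, RNA was selected for poly(A), made into TruSeq libraries and read as paired ends. Per the submitters' processing notes, the tools were STAR 2.3, HTSeq and edgeR, with mm9 as build. Annotation, strand setting and filters: not given in the sources used here. Of 14052 identifiers 14026 matched a symbol.

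Genes were tested in edgeR 4.0.16 (R 4.3.3) with filterByExpr (minimum count 10, minimum total 15), TMM and a quasi-likelihood test on the group, with Benjamini-Hochberg adjustment over 7020 genes. The common biological coefficient of variation was 0.152. Log2 CPM used a prior count of 2. A 0 allows 3 counts, or 0.409 to 0.649 CPM, for counting error only. Alternatives are given in the closing section and include DESeq2 1.42.0 and limma 3.58.1. The steps were tested on simulated data. Overlaps and copies were looked up in GENCODE M21 with BLAST 2.17.0. Python 3.11.15 was used elsewhere.

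The members, the 20 gene lists and the alternatives were chosen with earlier results of these data known. Named genes are the 7 members, all tested genes of the angiopoietin, renin-angiotensin and VEGF lists, up to 4 called genes per direction of the other lists with at least 1 CPM, and the 3 genes of closest profile among those of at least 10 CPM. Cdh5, Tie1, Rgs5, Cspg4, Notch3, Des, Col4a5 and genes at 0 were named after their values were seen. Some genes counted in the lists are not reported here by name. Marker lists of other tissue are given as counts.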

Additional observations from a re-analysis of the deposited data

Results flagged for a closer look

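Ptprb in tumour area L4, at 224 CPM, stood apart from the other tumour areas, which held 191 to 198 CPM. The gap was 0.795 of the range of the group. This was the only one of 14 groups of areas (7 genes, tumour and normal) in which a single area stood out by Dixon's test, and chance alone marks about 1 in 20 groups. Without L4 the log2 fold change of Ptprb was -1.26.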

How the results depend on the processing

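All 7 members kept their direction in all 19 alternatives of the fit, and Nphs1 (-3.02 to -2.34), Podxl (-1.32 to -0.97), Tek (-1.84 to -1.48), Ptprb (-1.27 to -0.93) and Ren1 (-1.55 to -1.16) also kept their call. Esam (0.29 to 0.70) and Plvap (0.24 to 0.60) lost theirs when only areas named with R were kept, at 0.29 and 0.24, where fewer areas were compared, and kept it in the other 18. With library size alone the median of all genes moved to 0.35. Over the alternatives 2425 to 3735 genes were higher and 1689 to 2623 lower. The 8 comparisons with a cell type list kept their direction with another prior count, with reference genes of at least 10 CPM, and with each area or both L4 and R5 left out. Their p cannot show stability, being the smallest the areas allow, and areas named R alone were not run for them. Of 71 called list genes checked one by one, 57 kept their call throughout. With library size alone Pik3r1 read 0.04 and Atp6ap2 0.11, and Cdh5, not called in the fit reported, read -0.06 without tumour L4, without L4 and R5 and with only areas named R. Counts of list genes moved in some alternatives. With library size alone junction genes went from 2 higher and 5 lower to 5 and 3, higher VEGF genes from 3 to 7, higher renin cell genes from 3 to 5 and higher parietal genes from 2 to 4. With only areas named R no junction gene was higher. With the area letter as a covariate, higher angiopoietin genes went from 2 to 4 and VEGF genes to 5, and without tumour R4 VEGF genes to 6. Higher lymphatic genes went from 2 to 1 in limma-voom and with only areas named R, and Alas2 was not called in 12 of 19. The causes were not tested. Depth limits Nphs1 and Tek most, with 4 and 26 reads in their lowest libraries.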
